A study of Mus musculus with 4 samples.

Results

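Pigment synthesis in melanocytes depends on a small set of enzymes and melanosome membrane proteins, and 10 mouse genes of this set were followed here as members of the set: Tyr, Tyrp1, Dct, Pmel, Mlana, Gpr143, Oca2, Slc45a2, Slc24a5 and Trpm1. They were chosen by function, and every probe set listed with 1 of these genes alone was taken. This gave 17 probe sets for 9 of the 10 genes, out of 18193 genes with a probe set of their own. Slc24a5, a potassium-dependent sodium/calcium exchanger gene, was not among the genes listed in the annotation used, and no value is given for it. Of the 17 probe sets, 16 had a mean log2 intensity of at least 5 over the lines and entered the tests, and the other was a dim probe set of Trpm1.

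RNA of 4 immortalised melanocyte lines was hybridised to Affymetrix arrays, 1 for each line. By the sample labels, lines 10d (male) and 13d (female) are bcat* and lines 9v (male) and 14d (female) are WT, all from skin of C57BL/6J pups aged 3 days. The bcat* allele is a stable, transcriptionally active form of β-catenin made in the melanocyte lineage, and during establishment of the lines fibroblasts were selected against with G418. All lines were grown to 80% confluency in medium with 10% FBS and TPA at 200 nM, a phorbol ester on which mouse melanocytes depend in culture, so that no line was free of it. The article's methods give the opposite genotypes for 14d (bcat*) and 13d (WT), whereas 10d and 9v are bcat* and WT in both sources. Results are therefore given by line first, and the groups are then formed as the labels and as the article give them. Each line stands for 1 culture, and each labelled genotype is held by 1 male and 1 female line, so that what is particular to a single line cannot be told apart from its genotype or sex.

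Melanin is made inside the melanosome, a lysosome-related organelle. Tyrosinase (Tyr) oxidises tyrosine to dopaquinone, dopachrome tautomerase (Dct) converts dopachrome, and Tyrp1 stabilises tyrosinase and acts later in the pathway. Pmel forms the fibrils on which the pigment settles, Mlana and Gpr143 act in melanosome formation, and the carriers and channels Oca2, Slc45a2 and Slc24a5 set the ion content and pH of the organelle. Mitf, the main transcription factor of the lineage, binds an E-box known as the M-box in promoters of several of these genes, while β-catenin acts on DNA through Tcf/Lef factors.

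The upstream sequences are shown because they hold both kinds of motif. RefSeq promoter sequences (GRCm38.p6) were at hand for 6 of the 10 genes, in 7 windows of 250 bases before a start site, since Trpm1 has a start site at each of 2 places. The M-box TCATGTG was searched on both strands and lay in 5 of the 7 windows, against 3.25% of 32851 promoter windows of the same length. As the M-box is known from promoters of several of these genes, these shares are a description and not a test. The sites with full flanks are printed here with the motif in capitals, read on the strand that carries it.
Tyr, chr7:87493521-87493541, minus strand: aagttagTCATGTGctttgca
Tyrp1, chr4:80834159-80834179, plus strand: gagggagTCATGTGctgccta
Dct, chr14:118052384-118052404, minus strand: cttagggTCATGTGctaacaa
Dct, chr14:118052465-118052485, plus strand: attgggcTCATGTGtcccagc
Trpm1, chr7:64153686-64153706, plus strand: atcctcaTCATGTGcccaccc
The outermost base of the motif lay 22 bases before the start site in Tyr, 47 in Tyrp1, 151 and 232 in Dct and 142 in Trpm1. The start site used for Tyrp1, and the site printed for it, lie inside the gene as RefSeq spans it. The site of Slc24a5 lay 13 bases before its start site, too near the end of the window for full flanks. The core CATGTG, which is part of TCATGTG, was in 6 of the 7 windows, with Oca2 in addition, against 12.3% of all windows.

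Oca2 and Trpm1, the members whose intensity varied most between the lines, have the following windows, in which capitals mark any motif searched.
Oca2, chr7:56239509-56239758, plus strand: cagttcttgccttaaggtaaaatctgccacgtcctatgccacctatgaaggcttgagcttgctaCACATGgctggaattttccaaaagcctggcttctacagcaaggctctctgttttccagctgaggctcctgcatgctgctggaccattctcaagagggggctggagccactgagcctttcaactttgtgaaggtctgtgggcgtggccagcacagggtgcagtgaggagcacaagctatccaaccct
Trpm1, first start site, chr7:64153585-64153834, plus strand: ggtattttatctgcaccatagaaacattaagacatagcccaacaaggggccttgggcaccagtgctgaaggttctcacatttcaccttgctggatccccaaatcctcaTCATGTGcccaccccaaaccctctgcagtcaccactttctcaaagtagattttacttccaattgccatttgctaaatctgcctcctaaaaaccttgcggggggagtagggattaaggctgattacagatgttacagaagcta
Trpm1, downstream start site, chr7:64185209-64185458, plus strand: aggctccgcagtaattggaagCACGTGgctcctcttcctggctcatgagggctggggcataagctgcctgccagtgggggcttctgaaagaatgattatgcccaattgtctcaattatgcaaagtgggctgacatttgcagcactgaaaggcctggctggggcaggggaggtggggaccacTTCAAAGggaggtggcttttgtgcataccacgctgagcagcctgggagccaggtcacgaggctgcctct
The Oca2 window holds the core alone, on the opposite strand, and its start site lies inside the gene as RefSeq spans it. The Tcf/Lef motifs were searched on both strands in 4 forms. The form CTTTGAA, held by 4.46% of all windows, was found on the opposite strand of the downstream Trpm1 window. The form CTTTGTT, held by 5.03%, was found on the opposite strand of the Dct window. The form CTTTGAT, held by 3.21%, was in none of the 7 windows, nor was the form CTTTGTA, held by 3.2%. Together the 4 forms were in 2 of the 7 windows, against 14.8% of all. The E-box CACGTG, added after the windows had been read, was in the downstream Trpm1 window (6.02% of all windows).

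The arrays were alike as a whole. Between 35.8% and 36.1% of probe sets reached an intensity of 32, the level taken as detected (log2 of 5), and RNA integrity numbers were 9.7 to 9.9. Of 6 melanocyte markers outside the members, 5 were detected in each line, and the other, Ednrb, had an intensity of 29 in every line. Ctnnb1, the β-catenin gene, gave 31799 (10d) and 34368 (13d) in bcat* lines and 30254 (9v) and 31844 (14d) in WT lines, and the arrays do not separate the transgene from the endogenous gene. Xist and 3 Y-linked genes followed the sex labels of all 4 lines. The article's methods call the mice of the lines male, which differs from the labels of 13d and 14d. Of the markers of other cell types, fibroblast markers summed to 165 (10d) and 137 (13d) against 270 (9v) and 91 (14d). By their mean 2 of the 8 were detected, Col1a2 at 80 and 24 against 175 and 17 and Postn at 34 and 61 against 38 and 20, and the other 6 lay between 4 and 23 in every line. Keratinocyte markers summed to 309 and 197 against 190 and 147, and Schwann cell markers to 132 and 40 against 70 and 33. By its mean 1 of the 7 keratinocyte markers was detected, Krt10 at 268 and 156 against 148 and 106. The rest lay between 4 and 11 in every line. None of the 4 measured Schwann cell markers was detected by its mean, the highest value being 54, of Pmp2 in line 10d. The macrophage list (2 of 5 detected in each line) summed to 275 and 381 against 416 and 9667, of which Lyz2, the lysozyme gene, gave 9580 in line 14d. The other detected marker, Csf1r, was at 40 and 34 against 49 and 51, and Ptprc, Cd68 and Adgre1 lay between 4 and 23 in every line. The part of these other markers in the values of the members was not tested.

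All 9 measured members were detected in every line. Ranked by intensity among 18193 genes, each with its brightest probe set, 5 of the 9 were within the first 100 in all 4 lines: Tyr, Tyrp1, Dct, Pmel and Mlana. Dct had ranks of 9 (10d) and 4 (13d) against 10 (9v) and 8 (14d), Tyrp1 of 10 and 6 against 9 and 12, and Pmel of 15 and 15 against 17 and 10. Mlana ranked 30 and 49 against 54 and 38, and Tyr 66 and 87 against 51 and 47. Slc45a2 ranked 117 and 221 against 259 and 385, Oca2 175 and 909 against 288 and 723, Trpm1 296 and 950 against 653 and 1913, and Gpr143 652 and 1567 against 689 and 848. The signal of a probe set depends on its probe sequences as well as on the RNA, so these ranks describe signals and do not order the amounts of mRNA. In RNA of whole cultures, fewer cells that express a gene and less RNA per cell cannot be told apart.

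**Figure D1:**
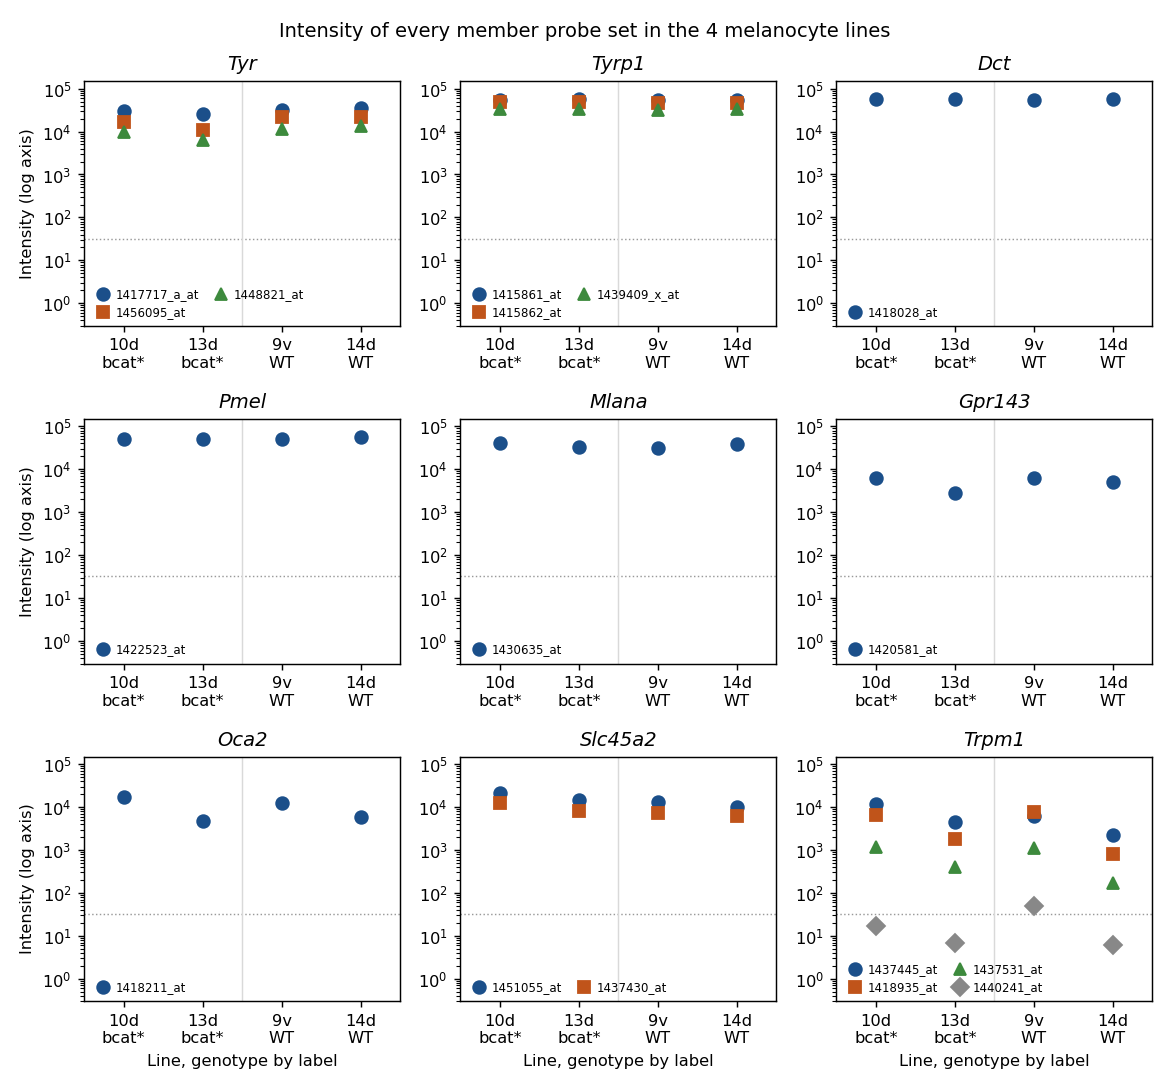
Deposited intensity (log axis) of each of the 17 member probe sets in lines 10d and 13d (bcat* by label) and 9v and 14d (WT by label), 1 array each; the dotted line marks the detection level of 32. Tyrp1, Dct and Pmel lie almost flat across the lines, while Oca2 and Trpm1 differ between them.

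Tyr (chr7:87424771-87493512), the enzyme of the first steps of the pathway, was the member of this class that varied. Its brightest probe set, 1417717_a_at, had intensities of 29577 (10d) and 25134 (13d) in labelled bcat* lines and 31903 (9v) and 35711 (14d) in labelled WT lines. In 1456095_at the values were 16884 and 11101 against 21730 and 21631, and in 1448821_at they were 9575 and 6387 against 11552 and 13802. In each of the 3 probe sets line 13d was lowest and both labelled bcat* lines lay below both labelled WT lines, without overlap. The highest line was 1.42-fold above the lowest by the brightest probe set and 1.96-fold and 2.16-fold by the others. On the log2 scale the brightest probe set averaged 14.73 ± 0.17 in labelled bcat* lines and 15.04 ± 0.12 in labelled WT lines (SD, n = 2 each). Lines 10d and 9v lay closer, at ratios of 0.927, 0.777 and 0.829, than lines 13d and 14d, at 0.704, 0.513 and 0.463.

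Tyrp1 (chr4:80834123-80851736), a tyrosinase-related protein, was nearly level. Its brightest probe set had 55393 (10d) and 57044 (13d) against 53999 (9v) and 54209 (14d), and its second 47720 and 48823 against 46125 and 45338. The third, 1439409_x_at, whose suffix marks possible cross-hybridization, had 32915 and 32846 against 31599 and 32832. Both labelled bcat* lines lay above both labelled WT lines in all 3 probe sets, but by margins as small as that of the third, and the ranges were 1.06-fold, 1.08-fold and 1.04-fold. Dct (chr14:118012790-118052246), measured by 1 probe set, had 56295 and 57474 against 53134 and 56873, a range of 1.08-fold in which the groups overlapped.

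Among the structural and membrane proteins, Pmel (chr10:128695888-128720238), the fibril protein, had intensities of 50283 (10d) and 49559 (13d) against 50539 (9v) and 55363 (14d), a range of 1.12-fold. Line 14d stood above the other three, and both labelled bcat* lines lay below both labelled WT lines. Mlana (chr19:29697541-29708447), a small membrane protein that associates with Pmel, had 40712 and 33512 against 31283 and 38536, a range of 1.3-fold. Here 10d was highest and 9v lowest, and the labelled groups overlapped. Gpr143 (chrX:152781921-152808651), a G protein-coupled receptor of the melanosome membrane, had 6313 and 2739 against 6108 and 5089. Its range of 2.3-fold came from line 13d, which lay below the other lines.

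The transporters and the channel varied more. Oca2 (chr7:56239593-56536518), a melanosomal membrane protein that acts on chloride flow and pH, had intensities of 16985 (10d) and 4710 (13d) against 12182 (9v) and 5931 (14d). The labelled bcat* lines thus held both the highest and the lowest value, 3.61-fold apart, and their log2 SD was 1.31, against 0.73 in the labelled WT lines (n = 2 each). Slc45a2 (chr15:11000721-11029233), a carrier that raises melanosome pH, had 21395 and 14344 against 12978 and 9963 by 1451055_at, and 12174 and 8040 against 7295 and 6071 by 1437430_at. Both probe sets gave the same order of the lines, 10d highest and 14d lowest, with the labelled bcat* lines above the labelled WT lines and ranges of 2.15-fold and 2.01-fold.

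Trpm1 (chr7:64153835-64269772), a cation channel, had the widest range of the members. Its brightest probe set, 1437445_at, had 11869 (10d) and 4521 (13d) against 6329 (9v) and 2181 (14d), a range of 5.44-fold. The second, 1418935_at, had 6438 and 1837 against 7548 and 812, and the third, 1437531_at, had 1170 and 408 against 1105 and 172, with ranges of 9.3-fold and 6.8-fold. Line 14d was lowest and line 13d second lowest in all 3, while 10d was highest in 1437445_at and 1437531_at and 9v in 1418935_at. The probe set left out of the tests, 1440241_at, had 17 and 7 against 49 and 6. The labelled groups overlapped in every probe set of Trpm1. By RefSeq the gene also holds miR-211 (mmu-miR-211-5p, chr7:64205831-64205852, plus strand, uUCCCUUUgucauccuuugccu with the seed, bases 2 to 8, in capitals), which was not analysed here.

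In Gpr143, Oca2 and the 3 brighter probe sets of Trpm1, lines 10d and 9v, male by label, both lay above lines 13d and 14d, female by label. For Gpr143, which is X-linked, the ratio of 10d to 9v was 1.03 and that of 13d to 14d was 0.538. For Oca2 the ratios were 1.39 and 0.794, and for the brightest probe set of Trpm1 1.88 and 2.07. In Dct both female lines lay above both male lines. The remaining tested member probe sets overlapped between the sexes. The share of all tested probe sets split by sex in this way was not computed, so the splits in members cannot be set against it. With genotypes by the labels, 19.6% lay higher and 19.4% lower in bcat* lines without overlap. By the article the shares were 17.1% and 14.9%. Each sex is held by 2 lines, and a difference between the sexes was not tested.

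**Figure D2:**
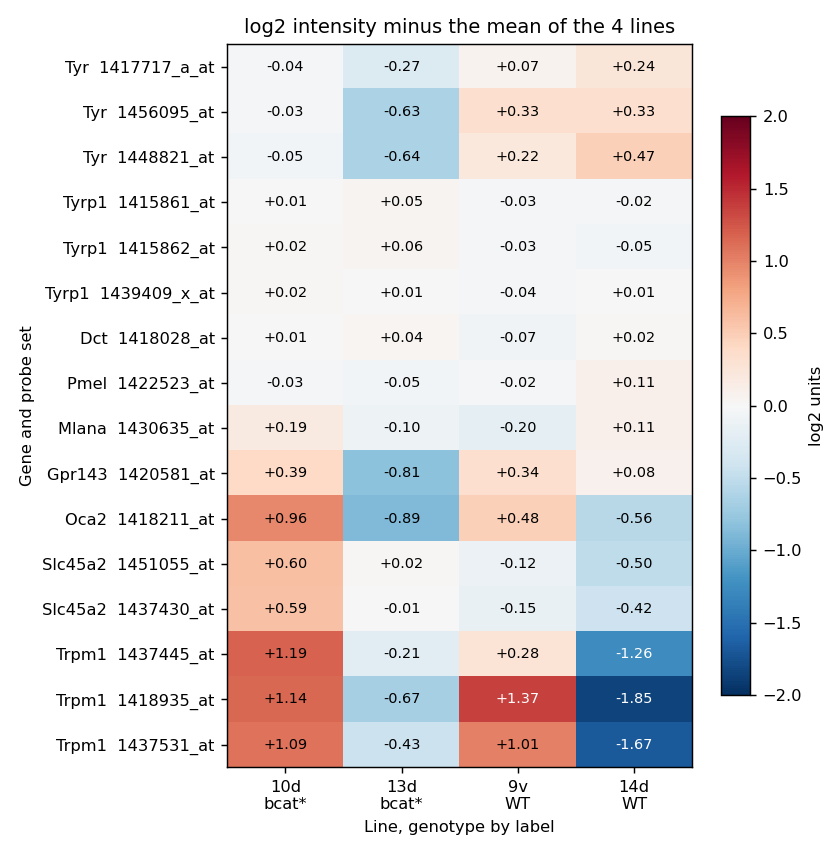
Difference of each line's log2 intensity from the mean of the 4 lines for the 16 member probe sets at or above the detection level, with lines in columns (genotype by label), 1 array each, red above and blue below the mean. Trpm1 and Oca2 take the strongest colours, with lines 10d and 9v above the mean and lines 13d and 14d below it, while Tyrp1, Dct and Pmel stay within 0.11 of it.

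The range over the lines set the members in 2 parts. Over 8892 detected genes the median range was 1.79-fold and 40.1% had a range of at least 2-fold. By the brightest probe set of each gene, 4 of the 9 members did (Gpr143, Oca2, Slc45a2 and Trpm1), a share near this background. The median range of the 9 members was 1.42-fold. The other Tyr probe sets, not used for these ranges, ranged over 1.96-fold and 2.16-fold. The brightest members had the narrowest ranges, with 99.3% of detected genes ranging more widely than Tyrp1, 98.7% more than Dct, 97.8% more than Pmel, 87% more than Mlana and 77.3% more than Tyr. At the other end, 30.2% ranged more widely than Gpr143, 34.8% more than Slc45a2, 13.2% more than Oca2 and 7.24% more than Trpm1.

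Brightness went with range over all genes. Of 175 genes with a mean intensity of at least 16384, where Tyr, Tyrp1, Dct, Pmel and Mlana lie, the median range was 1.28-fold and 11 genes (6.29%) reached 2-fold. Of 1758 genes between 2048 and 16384, where Gpr143, Oca2, Slc45a2 and Trpm1 lie, the median was 1.59-fold and 23.9% reached 2-fold. The medians were 1.79-fold and 2.16-fold in the dimmer classes. In each array between 170 and 177 probe sets exceeded 30000, 6 of them member probe sets in all 4 lines, and the highest value of any probe set was between 72776 and 84904. Whether signals this high still follow the amount of RNA was not tested.

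**Figure D3:**
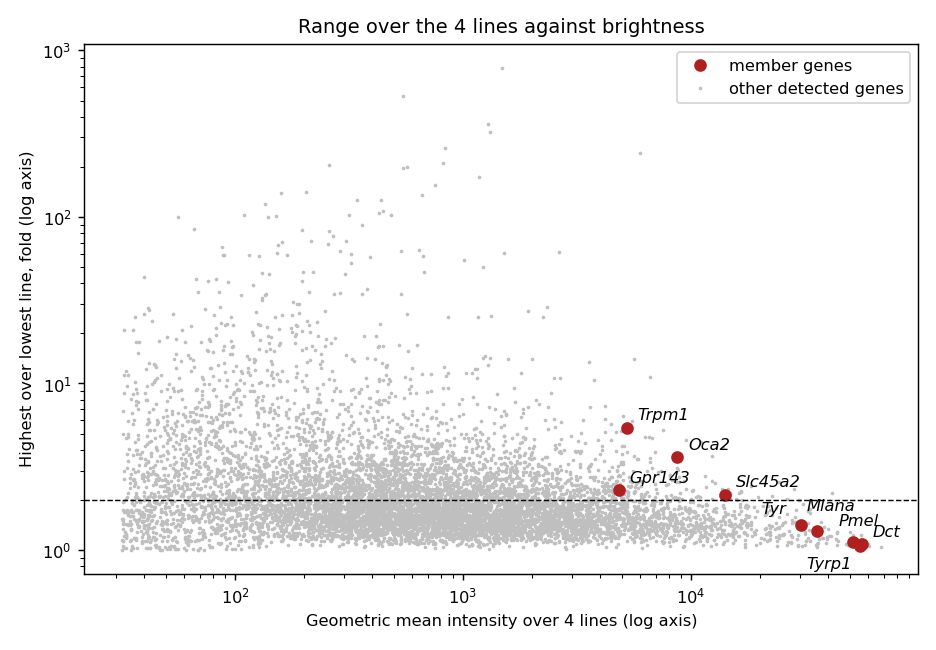
Highest over lowest line (fold, log axis) against the geometric mean intensity over the 4 lines (log axis) for the 8892 detected genes, grey, with the 9 members in red and the 2-fold range dashed. Trpm1, Oca2, Gpr143 and Slc45a2 lie above 2-fold, and the 5 brightest members lie below it at the right. Each gene is drawn by its brightest probe set.

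Between lines 10d and 9v, whose genotypes both sources give alike, none of the 9 members was at least 2-fold apart, and 17.4% of detected genes were. For so few genes this is near that share, and 5 of the 9 lie in the brightest class, where ranges were narrow. Member differences (log2, 10d minus 9v) had a median of 0.08, against 0 over all detected genes, and 7 of 9 were positive. The brightest probe set of Trpm1 differed by 0.91, that of Slc45a2 by 0.72, Oca2 by 0.48 and Mlana by 0.38. For Trpm1 the other tested probe sets gave -0.23 and 0.08, so that its 3 probe sets did not go 1 way. Of Slc45a2 the second probe set gave 0.74. These values come from 1 array per line and carry no test.

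By the brightest probe set of each gene, the other pairs of lines gave 1 to 3 members at least 2-fold apart. Between 13d and 14d it was Trpm1, higher in 13d (ratio 2.07), with 19% of detected genes past this fold. Between 10d and 14d Oca2 (2.86), Slc45a2 (2.15) and Trpm1 (5.44) were higher in 10d (23.5% of genes). Between 13d and 9v Gpr143 (0.448) and Oca2 (0.387) were lower in 13d (12.1% of genes). Dimmer probe sets, not counted here, also passed 2-fold. Those of Trpm1 gave 0.243 and 0.369 for 13d over 9v, and 1448821_at of Tyr gave 0.463 for 13d over 14d. The pairs that share a labelled genotype held 3 and 2 members. In 10d against 13d, both bcat* by label, Gpr143 (2.3), Oca2 (3.61) and Trpm1 (2.63) were higher in 10d (14% of genes), and in 9v against 14d, both WT by label, Oca2 (2.05) and Trpm1 (2.9) were higher in 9v (14.7% of genes). Each line enters 3 of the 6 pairs, so that these counts are not independent.

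With the genotypes of the labels, no member passed the test. In limma with Benjamini-Hochberg adjustment over 16206 probe sets, adjusted p-values of the 16 member probe sets were 0.679 to 0.984, and none had an unadjusted p under 0.05. No probe set of any gene was called (0% of those tested) and 7.35% had an unadjusted p under 0.05. The fitted differences (log2, bcat* minus WT, with SE) of the brightest probe sets were -0.31 ± 0.15 for Tyr, 0.06 ± 0.09 for Tyrp1, 0.05 ± 0.10 for Dct and -0.08 ± 0.10 for Pmel, which median centring of the arrays turned to 0.01. They were 0.09 ± 0.17 for Mlana, -0.42 ± 0.46 for Gpr143, 0.07 ± 0.75 for Oca2, 0.62 ± 0.27 for Slc45a2 and 0.98 ± 0.74 for Trpm1. The remaining probe sets of Tyr gave -0.66 ± 0.24 and -0.69 ± 0.26, and the second of Slc45a2 gave 0.57 ± 0.27. For Trpm1 the other tested probe sets gave 0.47 ± 1.29 and 0.66 ± 1.09. Among the brightest probe sets the standard error was smallest for the enzymes and Pmel and largest for Oca2 and Trpm1, where lines of 1 labelled genotype lay far apart. The median difference over the 16 probe sets was 0.06, against 0.02 over all probe sets tested.

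Between the labelled groups, 5 of the 16 member probe sets lay higher in bcat* lines without overlap, namely those of Tyrp1 and Slc45a2, and 19.6% of all tested probe sets did so. Another 4 lay lower without overlap, those of Tyr and that of Pmel, beside 19.4% of all, and 7 overlapped. An exact permutation test of 2 lines against 2 cannot give a two-sided p below 0.333.

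With the genotypes of the article, 10d and 14d are set against 9v and 13d, and both fits hold 10d and 9v in the same role. In this limma fit the adjusted p-values of member probe sets were 0.961 to 0.996 (Benjamini-Hochberg). No probe set of any gene was called (0%), and 3.92% had an unadjusted p under 0.05, among members Mlana alone, with 0.29 ± 0.10 and an unadjusted p of 0.0382 in limma. The difference of Tyr was 0.20 ± 0.18, of Gpr143 0.47 ± 0.45, of Oca2 0.41 ± 0.73, of Slc45a2 0.10 ± 0.41 and of Trpm1 -0.07 ± 0.89 by the brightest probe sets. The other tested probe sets of Trpm1 gave -0.7 ± 1.29 and -0.58 ± 1.13. Mlana lay higher in the bcat* lines of the article without overlap, as did 17.1% of all probe sets. None of the member probe sets lay lower without overlap (14.9% of all), and 15 overlapped. Tyrp1 gave -0.02 ± 0.08 and Pmel 0.08 ± 0.09. By the brightest probe sets, the sign of the difference of Tyr, Tyrp1, Pmel, Gpr143 and Trpm1 thus depended on which source gives the genotype of lines 13d and 14d. For Tyrp1 and Pmel the differences lay within their SE in both fits. The third probe set of Tyrp1, 1439409_x_at, gave 0.03 in both.

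**Figure D4:**
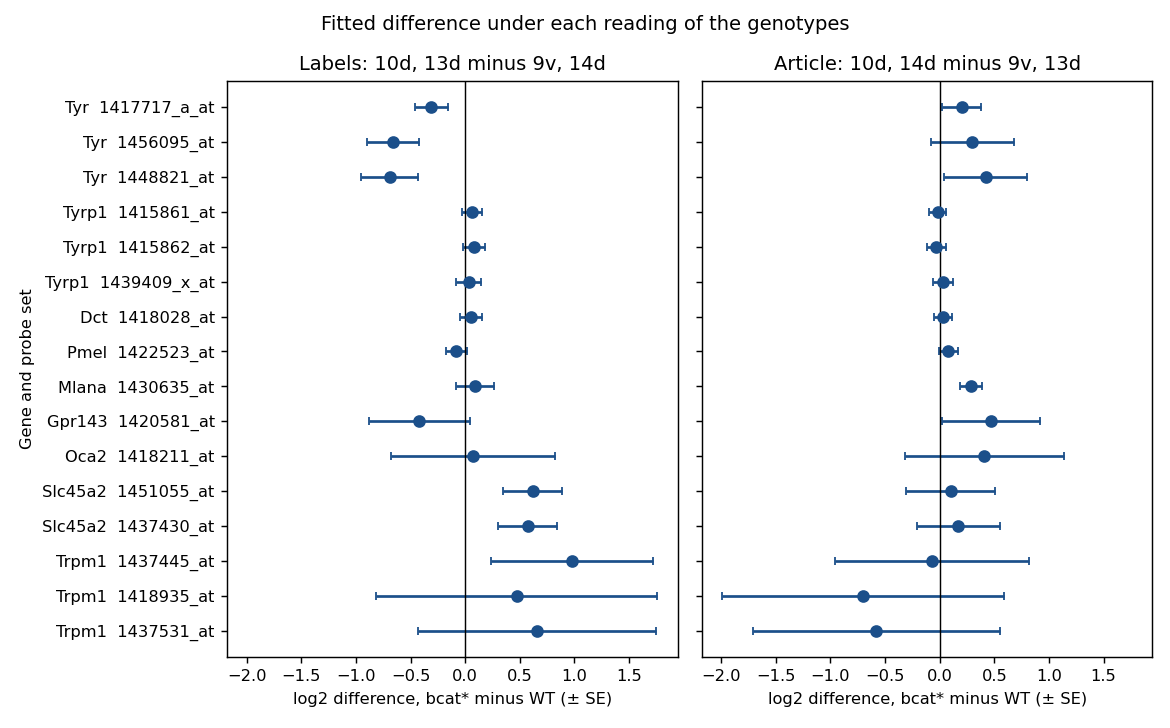
Fitted log2 difference, bcat* minus WT, with its standard error from limma, for the 16 tested member probe sets, with genotypes from the labels at left (10d and 13d minus 9v and 14d) and from the article at right (10d and 14d minus 9v and 13d). The 3 Tyr probe sets lie below 0 at left and above 0 at right, and no adjusted p-value in either panel is below 0.679.

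Genes with a profile like that of Trpm1 were sought because it ranged most widely. The profile was that of its brightest probe set, 1437445_at, alone. Its other probe sets order lines 10d and 9v otherwise or nearly level, and the genes nearest to them were not sought. Distance was taken between log2 profiles centred over the 4 lines, among 8883 detected genes outside the members. The nearest were Cep83os at 0.25, Slc25a33, a mitochondrial nucleotide carrier gene, at 0.28 and Gnl2, a nucleolar GTPase gene, at 0.31. Slc25a33 had intensities of 1495 (10d) and 487 (13d) against 893 (9v) and 280 (14d), and Gnl2 of 2671 and 1019 against 1652 and 631. Among the members Oca2 (1.02) and Slc45a2 (1.06) came closest, but 422 and 481 genes outside the members were nearer. With 4 lines many genes can share a profile, and the distances are a description.

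The genes around the members were followed in 3 lists. Of 8 other genes of melanin chemistry, 6 were detected, 0 were 2-fold apart between 10d and 9v, and 2 had a range of at least 2-fold over the 4 lines (33.3%, against 40.1% of all detected genes). Their median log2 difference was 0.22 between 10d and 9v and 0.14 between the labelled groups. Slc3a2 and Ctns, named after their values were seen, were the genes that reached 2-fold, with 13398 (10d) and 5059 (13d) against 9905 (9v) and 7014 (14d) for Slc3a2, an amino acid transporter subunit, and 261 and 140 against 150 and 105 for Ctns, the cystine exporter.

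Of 25 genes that process or sort melanosome cargo, 23 were measured and detected. Between 10d and 9v, 1 of them was higher and 1 was lower by 2-fold or more, where 17.4% of all detected genes were that far apart. Over the 4 lines 6 of the 23 (26.1%) ranged over at least 2-fold, against 40.1% of all detected genes. The higher was Apoe, an apolipoprotein that takes part in Pmel fibril formation, with 598 (10d) and 2129 (13d) against 4 (9v), under the detection level, and 17155 (14d). It was highest in line 14d, as Lyz2 was. The lower was Bloc1s5, a subunit of BLOC-1, which delivers cargo such as Tyrp1 to melanosomes, with 293 and 226 against 1008 and 351.

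Of 11 regulators of pigment genes, 9 were detected and none was 2-fold apart between 10d and 9v (17.4% of all detected genes were). A range of at least 2-fold was found in 1 of the 9 (11.1%, against 40.1% of all detected genes), Mc1r, the melanocortin receptor, with 3833 (10d) and 8071 (13d) against 5921 (9v) and 8343 (14d). Mitf had 25382 and 25220 against 29002 and 23118, and Sox10, a lineage transcription factor, 7168 and 8578 against 7056 and 8195. Mitf and Sox10 ranged over 1.25-fold and 1.22-fold, below the median of 1.79-fold over all detected genes. Line 14d was lowest in Mitf and Trpm1, but highest in Pmel and in the brightest probe set of Tyr. Line 13d, lowest in Tyr, Gpr143 and Oca2, had the highest Sox10. A link between these regulators and the members was not tested. Lef1, a partner of β-catenin on DNA, had 12 and 20 against 8 and 85 and lay under the detection level by its mean. No gene of the 3 lists was called by limma under either set of genotypes.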

How the data were processed

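RNA of 4 lines was hybridised to 1 Affymetrix array each. The authors deposited intensities, 1 per probe set, made with GCRMA by the submitters' notes (version and build: not given in the sources used here). They were whole numbers, taken as linear, with a median of 7 or 8 per array, so that ratios of dim probe sets are coarse. Log2 was computed from them. Of 45037 probe sets, 932 carry several genes and 9160 none in the platform annotation, and neither was used. Of the 34945 others, 34741 matched a RefSeq gene (GRCm38.p6). For each gene the probe set of highest mean log2 intensity was taken, and values under 32 were raised to 32 before folds were formed.

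Groups were compared with limma 3.58.1 in R 4.3.3 (lmFit, eBayes with trend) over probe sets with a mean log2 of at least 5, with Benjamini-Hochberg adjustment and a threshold of 0.05. The fit was tested on simulated data. The genes named are the members, the 3 genes nearest in profile to the widest-ranging member, list genes at least 2-fold apart between 10d and 9v, Ctnnb1 and the sex genes, while all other genes were named after their values were seen. Members and lists were chosen with earlier results of these data known. Alternatives were quantile normalization, median centring, other filters, offsets, floors and folds, the mean of probe sets, probe sets without suffixes, no trend, sex as a block, the article's genotypes and each line left out in turn. Python 3.11.15, NumPy 2.4.6 and pandas 2.3.3 were used. The number of arrays limits the precision. The p-values and standard errors weigh the spread between lines together with that of probe sets of like brightness. The weight of this borrowed spread was 2.2 degrees of freedom under the labels and 2.04 under the article. For the brightest probe set of Tyrp1 the log2 SD was 0.03 in labelled bcat* lines and 0 in labelled WT lines, and the standard error was 0.09.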

Additional observations from a re-analysis of the deposited data

Results flagged for a closer look

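By the brightest probe set of each gene, the 2 pairs of lines of 1 labelled sex moved in opposite directions in 3 members. The log2 difference of line 10d (bcat*) minus line 9v (WT), both male by label, was 0.38 for Mlana, 0.05 for Gpr143 and 0.48 for Oca2. The log2 difference of line 13d (bcat* by label) minus line 14d (WT by label), both female by label, was -0.20 for Mlana, -0.89 for Gpr143 and -0.33 for Oca2. Each value rests on 1 array per line, and the difference between the pairs was not tested. With the article's genotypes the second difference changes sign. These 3 members were picked for opposite signs, so that they then go 1 way by construction. The other measured members, whose pairs agree in sign under the labels by the brightest probe set, then go opposite ways. For Trpm1 another tested probe set, 1418935_at, went opposite ways under the labels, at -0.23 (10d minus 9v) and 1.18 (13d minus 14d). These signs do not bear on which source is right.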

How the results depend on the processing

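No member probe set was called under any alternative of either fit. Of all probe sets, 13 were called with median centring, 7 without a trend and 754 (68 higher, 686 lower) with no filter on low values under the labels, and 170 with no filter under the article, against 0 otherwise. Median centring moved line 10d, whose median log2 was 2.81, against 3.00 in the others, and shifted the median difference of all probe sets under the labels to 0.12, against 0.02. With it Trpm1 was 2-fold apart between 10d and 9v, a count of 1, and the difference of Pmel was 0.01. With a threshold of 1.5-fold that count was 2 (Slc45a2 and Trpm1), and with 3-fold the members with so wide a range were 2 (Oca2 and Trpm1). With the mean of probe sets Trpm1 was 0.25 between 10d and 9v. With the article's genotypes the differences were 0.20 for Tyr, -0.02 for Tyrp1, 0.08 for Pmel, 0.47 for Gpr143 and -0.07 for Trpm1. Leaving out each line in turn, with a lone line assumed to vary like the other group, gave -0.06 to 0.24 for Mlana (-0.05 without 10d, -0.06 without 9v), -1.03 to 0.18 for Gpr143 (0.18 without 13d) and -0.85 to 1 for Oca2 (-0.85 without 10d, -0.45 without 14d). Trpm1 gave 0.21 to 1.75, Slc45a2 0.34 to 0.91 and Tyr -0.43 to -0.19. The labels give no shared replicate numbers. With sex as a block, which pairs 10d with 9v and 13d with 14d, 0 member probe sets were called under either set of genotypes, and the smallest adjusted p of a member was 0.611 (limma, labels). The precision is limited by 1 array per line.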
